A study of Mus musculus with 20 samples.

Results

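The cytosolic ribosomal protein genes were followed across 20 array samples of cultured mouse dorsal root ganglion (DRG) neurons. Members were taken by name. They are the array names Rpl or Rps followed by a number, with or without a closing letter or number such as a, x, y2 or l1, together with the stalk proteins Rplp0, Rplp1 and Rplp2 and the laminin receptor Rpsa. This gave 83 of 30222 gene names, on 195 of 43020 spots that were not controls. Of the 83 names, 32 belong to the small ribosomal subunit and 51 to the large, and 76 passed the filter on dim and non-uniform spots that 10355 gene names passed.

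All samples were neurons dissociated from embryos of the NIH Swiss strain at embryonic day 13.5 and kept with nerve growth factor and an inhibitor of dividing cells. The conditions were unstimulated, 18/1 (bursts of 18 action potentials every 1 min) for 2 hr or 5 hr, and 90/5 (bursts of 90 every 5 min) for 2 hr or 5 hr, with 4 samples each. Total RNA was hybridized to 10 arrays, each with 2 samples of the same condition, 1 in Cy3 and 1 in Cy5. Per the methods each condition came from 5 pooled cultures, and which cultures went into which sample is not given, so p-values measure only the spread between these samples. The protocol in the labels names spinal cords as the source and the labels name DRG neurons as the cell type. All 14 sensory neuron markers, such as Prph and Scn10a, were well above background in all 20 samples, and 0 of 4 spinal cord neuron markers were. Of those 4, Slc32a1 was well above background in 17 of the 20 samples, Chat in 7, Olig2 in 5 and Mnx1 in 4. Of the markers of other cells, 5 of 8 for Schwann cells or satellite glia, 5 of 6 for fibroblasts, 3 of 4 for macrophages and 1 of 3 for endothelium were well above background in all 20 samples.

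The ribosome translates mRNA into protein, and its small subunit reads the codons while the large subunit joins the amino acids. Each ribosomal protein is needed in about the same amount, and the mRNAs start with a tract of pyrimidines through which mTORC1 controls their translation more than their level. In sensory neurons some of these mRNAs travel into axons, and firing is known to set off phosphorylation of Rps6, a protein change that an array of RNA does not measure.

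The arrays lay on 3 slides, and this sets what can be compared. Slide 1 held unstimulated neurons (arrays 1 and 2) and 18/1 2 hr (arrays 3 and 4), slide 2 held 18/1 5 hr (arrays 5 and 6) and 90/5 2 hr (arrays 7 and 8), and slide 3 held 90/5 5 hr (arrays 9 and 10). The comparisons that stay on 1 slide are that of the 18/1 2 hr samples with the unstimulated ones and that of 90/5 2 hr with 18/1 5 hr. In all others slide and condition cannot be told apart. Samples of slide 2 are named by array and colour, because the labels leave their replicate numbers open. On slide 2 the scanner software marked 5319 to 14642 spots per sample as non-uniform on arrays 5 and 6 and 3138 and 6476 on array 8, against 45 and 139 on array 7 and 6 to 85 on slides 1 and 3. The stimulated samples carried the response their labels imply. Nr4a1, an immediate early gene, was 23.3-fold higher than in unstimulated neurons after 2 hr of 18/1 and 21.7-fold after 5 hr, and 27.1-fold and 45.5-fold higher after 2 hr and 5 hr of 90/5, with limma adjusted p of 4.93e-06 or less over 18744 genes, with the filter asked for in 1 condition only.

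Ribosomal protein mRNAs are among the most abundant in a cell, and many of their spots reached the scanner's ceiling. Between 109 and 144 of the 195 spots were marked saturated in the samples of 18/1 5 hr and between 84 and 136 in those of 90/5 2 hr. On slide 1 the Cy5 samples had 34 to 59 member spots with the mark and the Cy3 samples 0, but the mark misses spots at the ceiling there. With 1 probe per gene, 11 to 37 of 76 members in the Cy3 samples of slide 1 were within 1% of the highest signal of those scans, 65526, against 15 to 35 in the Cy5 samples. On slide 3, whose scans reach higher signals, up to 506707, 0 were marked. On the same probes, 62 of 76 members were marked saturated in all 4 samples of 18/1 5 hr and 51 in all 4 of 90/5 2 hr. For those, the signal is a lower limit, a rise is given as at least so many fold, and a fall has no known direction.

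**Figure D1:**
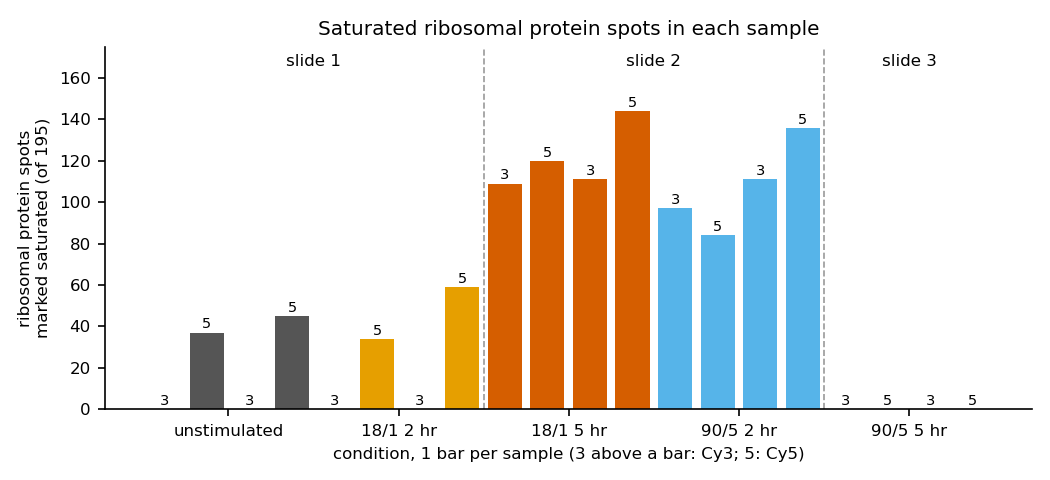
Number of the 195 ribosomal protein spots marked saturated in each of the 20 samples, 1 bar per sample, coloured by condition, with dashed lines between slides. The 8 samples of slide 2 have 84 to 144 marked spots, and the Cy3 samples of slide 1, where the mark misses spots at the ceiling, and all samples of slide 3 have 0.

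The probes shown here are those on which the largest falls rest, next to another probe of the same gene where one is shown. All positions are those of the array annotation on build mm9. An annotation of that build was not used here, so whether a probe lies in 1 exon is known only where its span exceeds its 60 bases, which means that it crosses an intron. Capitals mark G and C, since the GC content of a probe comes up again in the comparisons. The first Rps18 probe (chr17:34089041-34089202, minus strand) has 33 G or C and the second (chr17:34092060-34092119, minus strand) 27. The Rps19 probe (chr7:25670166-25670225) has 27. The first Rps16 probe (chr7:29137530-29137589) has 27 and the second (chr7:29137597-29137656), which starts a few bases further on, has 32. The first Rpl13 probe is placed on chr4:10775828-10775887, and the second crosses an intron on chr8:125627816-125628964. Both have 33. The Rps2 probes are placed on chr17:42864841-42864900, with 30, and on chr17:24857583-24857642, with 27.
Rps18, first probe: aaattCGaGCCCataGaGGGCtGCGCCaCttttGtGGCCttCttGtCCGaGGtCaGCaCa
Rps18, second probe: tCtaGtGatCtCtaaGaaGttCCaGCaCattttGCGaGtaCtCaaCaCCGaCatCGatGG
Rps19: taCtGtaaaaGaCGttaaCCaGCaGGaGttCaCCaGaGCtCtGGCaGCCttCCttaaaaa
Rps16, first probe: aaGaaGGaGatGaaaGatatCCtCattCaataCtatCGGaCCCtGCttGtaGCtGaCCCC
Rps16, second probe: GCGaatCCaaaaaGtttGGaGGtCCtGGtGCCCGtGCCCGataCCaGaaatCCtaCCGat
Rpl13, first probe: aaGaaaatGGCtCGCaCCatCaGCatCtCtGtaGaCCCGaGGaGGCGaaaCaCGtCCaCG
Rpl13, second probe: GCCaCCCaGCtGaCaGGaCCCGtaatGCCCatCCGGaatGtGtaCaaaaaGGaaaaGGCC
Rps2, first probe: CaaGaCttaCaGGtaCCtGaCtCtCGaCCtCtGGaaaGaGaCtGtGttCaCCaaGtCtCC
Rps2, second probe: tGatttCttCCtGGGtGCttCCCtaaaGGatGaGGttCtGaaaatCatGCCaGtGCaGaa

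At 18/1 2 hr, which shares its slide with the unstimulated neurons, no ribosomal protein gene was called different, where called means a limma p under 0.05 after Benjamini-Hochberg adjustment over all 10355 genes. The count was 0 of 76, at a background of 0.0193% of all genes called, and 0 of 76 also at an unadjusted p under 0.05. The methods' t-test called 0 as well. The median log2 difference of the members was 0.03, against -0.00 over all genes, and single members lay between -0.26 (Rps3a) and 0.44 (Rpl22l1). In 0 of 76 members did the 4 stimulated samples all lie on the same side of the 4 unstimulated ones, against 6.14% of all genes. A signal at the ceiling cannot move, and 43 of the 76 members were marked saturated or within 1% of the ceiling in at least 1 of the 8 samples. Of the 33 that never were, 0 were called, the median was 0.08, and 27 lay above 0. The 95% interval stayed within 2-fold of no change for 31 of the 33 and within 1.5-fold for 8, so changes under 1.5-fold could not be seen for most. Of the 22 members with a probe marked saturated in none of the 20 samples, on that probe, 20 lay above 0, with a median of 0.20. In bulk RNA, fewer cells of a type and less RNA per cell cannot be told apart, here or below.

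Many of the members chosen by role were at the ceiling in some samples of both groups at this time, where a difference near 0 says little about the mRNA. Rplp0, which anchors the stalk that recruits elongation factors, differed by 0.04 ± 0.27 (log2 difference ± SE, n = 4 per condition, as for all differences), and Rplp2 of the same stalk by 0.02 ± 0.28. Rps6 differed by 0.01 ± 0.27, Rpsa by -0.00 ± 0.25 and Rpl11, which binds the 5S RNA, by 0.08 ± 0.25. Of these only Rpsa and Rps6 were within 1% of the ceiling in as few as 2 and 1 of the 8 samples, and both had 3 samples marked saturated. Rpl3 and Rpl10, which line the peptidyl transferase centre and the path of the tRNA, differed by -0.02 ± 0.23 and -0.03 ± 0.26. Rps14 and Rps3, small subunit proteins near the site where mRNA is read and at its entry, differed by -0.08 ± 0.25 and 0.17 ± 0.23. Rpl10 and Rps14 were within 1% of the ceiling in 8 and 7 of the 8 samples, and Rpl3 and Rps3 in 0. Rpl22l1, the paralog of the RNA-binding protein Rpl22, was saturated in no sample. Its normalized log2 signal was 13.61, 13.35, 14.50 and 13.43 in unstimulated neurons and 14.54, 14.01, 14.25 and 13.86 at 18/1 2 hr. The groups overlap through 1 high unstimulated sample, and the difference of 0.44 ± 0.30 was not called.

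At 90/5 5 hr, the longest exposure to the rarer and longer bursts, 0 of the 76 members were called, at a background of 0.0676%, and 1 had an unadjusted p under 0.05. The methods' t-test called 0. The median was 0.02, against -0.01 over all genes, and of the 39 members never at the ceiling in unstimulated neurons the interval stayed within 1.5-fold for 10 and within 2-fold for 36. Rps21, a small protein of the small subunit, had the lowest value. Its signals were 14.59, 14.40, 14.70 and 14.64 in unstimulated neurons and 14.22, 13.80, 14.16 and 13.35 at 90/5 5 hr. All stimulated samples lay lower, as they did for 3 of 76 members (Rps21, Rpl39 and Rpl23a), against 11.6% of all genes that did not overlap. The difference of -0.70 ± 0.26 for Rps21 had an adjusted p of 1 in limma, and of 0.0417 with slide 2 left out of the fit and 0.0469 with replicate number as a block. The 4 unstimulated samples and the 4 of 90/5 5 hr lay on different slides, read over different ranges.

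**Figure D2:**
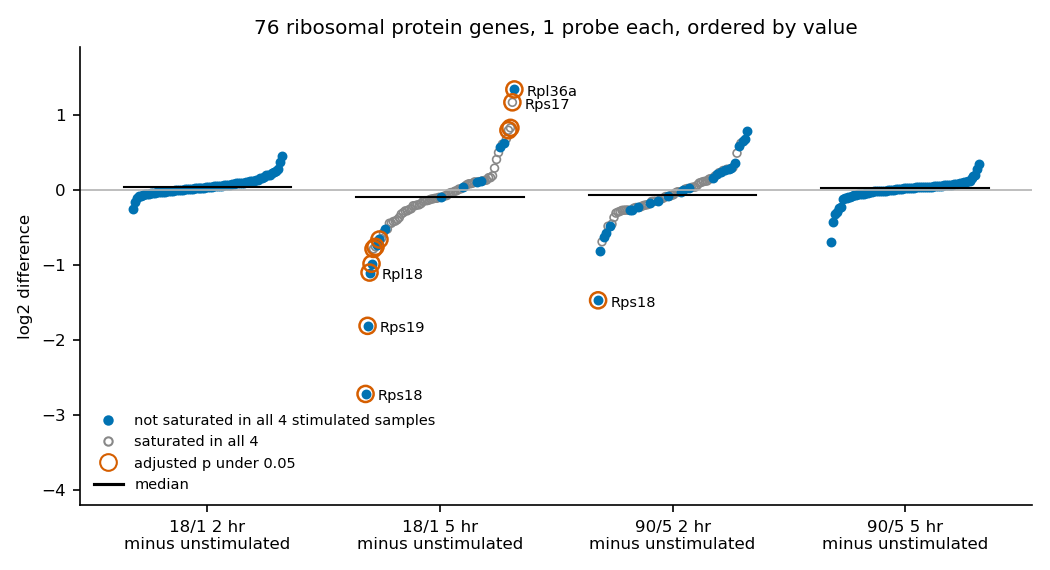
Log2 difference from unstimulated neurons for 76 ribosomal protein genes, 1 probe each, in each of 4 conditions. Open grey points were saturated in all 4 samples of the stimulated condition, orange rings mark an adjusted p under 0.05 and the bar is the median. No ring appears at 18/1 2 hr or 90/5 5 hr, both outside slide 2, and 11 and 1 appear at 18/1 5 hr and 90/5 2 hr.

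At 18/1 5 hr, 11 of 76 members were called, 14.5%, at a background of 44.4% of all genes. Of these, 4 were higher and 7 lower, at backgrounds of 15.0% and 29.5%. On this scaling the share is below the background, which does not hold on others, and 62 of the 76 probes were at the ceiling in all 4 samples. The median was -0.10, against -0.23 over all genes, and the mean SD between samples of a condition was 0.37 for the members, against 0.11 in unstimulated neurons. The measured falls were Rps18 and Rps19, in no sample saturated, and Rpl18 and Rpl26, each with 1 of 4 samples saturated. Rps26 differed by -0.66 ± 0.27 with 3 of 4 saturated, so most of its values are lower limits and its fall is not measured. Rps21 was called higher by at least 1.73-fold. This bound and that of Rpl17 hold for the Aquantile scaling only. Rpl17 was called higher, by at least 1.77-fold on its brightest probe, but its probe that was never saturated differed by 0.01 ± 0.33. Rpl36a was 1.33 higher on the log2 scale, with 3 of its 4 samples saturated, and Rpl32 and Rps15 were called with no known direction. The count fell to 4, 5 and 6 without array 1, 2 or 5, and rose to 17 without array 6 and to 19 without its Cy3 sample. The share of all genes called in these fits is not given. These counts, and counts of called members below without such a share, are therefore not set against a background.

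The median of the members at 18/1 5 hr depends on the scaling of the arrays. The Aquantile step gives all arrays the same distribution of signals, and the members sit near its upper end. With each sample centred on its median alone, the median of the members was -1.81 and that of all genes -0.81, and 63 members were called, 0 of them higher, 82.9% of the members against 51.8% of all genes. With cyclic loess the median was -0.91 and 51 were called, 4 higher and 47 lower, 67.1% against 45.9%. With each sample's trend on probe GC removed it was 0.32 and 25 were called, 19 higher and 6 lower, 32.9% against 36.0%. The share thus lay above the background on the first 2 of these scalings and below it on the third and on that of Aquantile. Neither a direction nor a relation to the background is therefore given for the group as a whole. Markers of cell types differed in the same comparison. Of 4 fibroblast markers tested, all lay higher, between 0.50 and 1.79 (median 1.02, against -0.23 over all genes). Only Col1a1, a collagen, was called, at 1.79 with 3 of 4 samples saturated. Pecam1, of endothelium, was called at -1.35, but was well above background in only 15 of 20 samples. The endothelial marker well above background in all 20 was Kdr. Of 14 sensory neuron markers 2 were called, 1 higher and 1 lower. The part of cell types in the members' values was not tested.

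Rps18, a protein of the head of the small subunit, had the lowest difference of the 76. Its normalized signals were 15.02, 15.07, 15.35 and 15.18 in unstimulated neurons. In the 18/1 5 hr samples they were 12.25 and 11.55 on array 5 and 13.02 and 12.91 on array 6. The groups do not overlap, and the difference was -2.72 ± 0.37, a 6.59-fold lower signal, with a limma adjusted p of 1.45e-05. The scanned intensities, before any correction, were 20157 to 30141 in unstimulated neurons, 5712 and 4758 on array 5 and 16005 and 24065 on array 6. The median spot of the array, with no background subtracted, was brighter at 18/1 5 hr (238 to 491) than in unstimulated neurons (90 to 109). The second Rps18 probe fell too, from 13.20, 13.57, 13.84 and 13.67 to 12.32, 12.06, 12.66 and 12.91, a difference of -1.08 ± 0.33 with adjusted p = 0.0101 among all 12137 probes. Its scanned intensities did not go down, at 5871 to 9796 in unstimulated neurons and 6112 to 23274 at 18/1 5 hr, so this fall is one relative to the other signals of the same samples. Neither Rps18 probe was saturated in any sample. At 18/1 2 hr the first probe differed by 0.01 ± 0.37 and at 90/5 5 hr by -0.01 ± 0.37.

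Rps19, a small subunit protein mutated in Diamond-Blackfan anemia, was also saturated in no sample. Its signals were 13.96, 14.32, 14.64 and 14.36 in unstimulated neurons and 14.64, 14.80, 14.56 and 14.76 at 18/1 2 hr. In the samples of 18/1 5 hr they were 12.28 and 11.87 on array 5 and 12.89 and 12.99 on array 6, below all samples of slide 1. The difference of -1.81 ± 0.36 had an adjusted p of 0.000474. Its scanned intensities were 9214 to 16518 in unstimulated neurons, 5884 and 6046 on array 5 and 14576 and 25338 on array 6, so that before normalization it was lower on array 5 and not on array 6. Rps18 and Rps19 remained lower and called in each of the 25 alternatives run, with values between -3.25 and -1.63 and between -2.24 and -1.07. Rpl18 differed by -1.10 ± 0.33 with 1 of 4 samples saturated, from 15.05 to 15.59 in unstimulated neurons to 13.95 to 14.61. It lost its call in 5 of 23 alternatives, with values between -1.30 and -0.12.

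Rps21, Rpl17 and Rpl36a were on the other side. The Rpl17 call was lost in 7 of 25 alternatives and its direction turned in 2, with values between -0.55, with each sample centred on its median alone, and 1.1. Rps21 had 15.62, 15.40, 15.55 and 14.93 at 18/1 5 hr, above all unstimulated samples. Rpl36a, of the large subunit, had 13.65, 13.37, 14.16 and 13.79 in unstimulated neurons and 15.14, 14.90, 15.42 and 14.84 at 18/1 5 hr. The Rpl36a call was lost in 2 of 23 alternatives, with values between 0.99 and 1.77. With each sample centred on its median alone, neither Rps21 nor Rpl36a was called higher. Other alternatives for Rps21 in this comparison are not given.

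**Figure D3:**
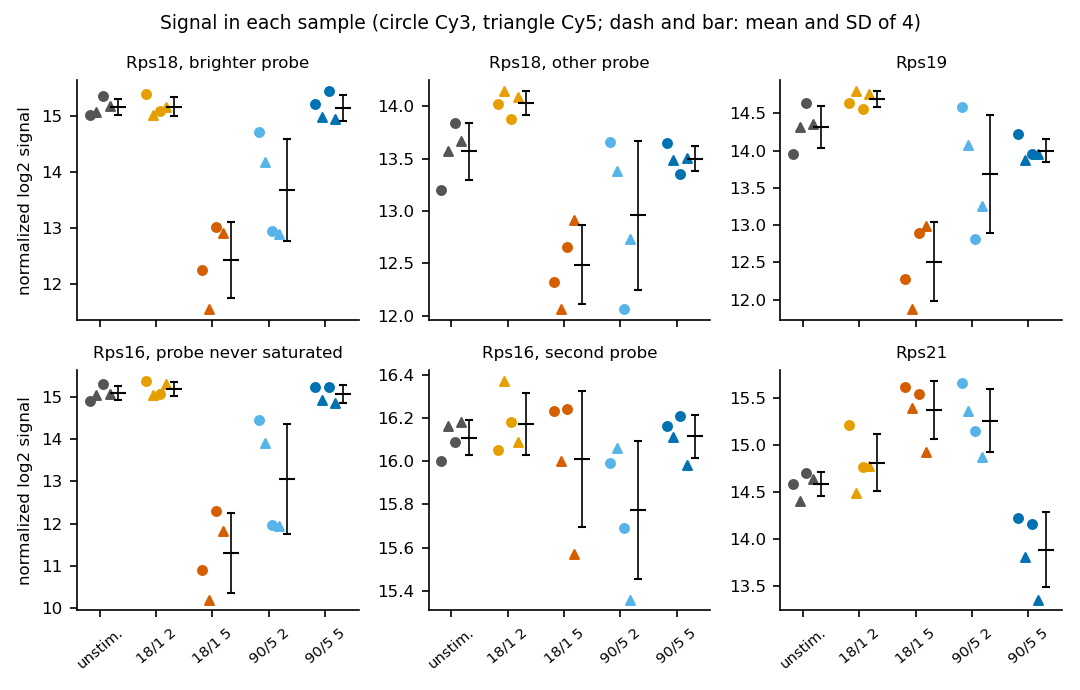
Normalized log2 signal in each of the 20 samples for 6 probes of Rps18, Rps19, Rps16 and Rps21, with circles for Cy3, triangles for Cy5, and the mean and SD of the 4 samples of each condition beside them. Each panel has its own scale. Rps18, Rps19 and the Rps16 probe that was never saturated are low on arrays 5, 6 and 8 of slide 2, and the second Rps16 probe, which reached the ceiling there, stays between 15.36 and 16.24.

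Of the members chosen by role, Rps19 was the only one called at 18/1 5 hr, on 1 probe per gene. Rplp0 differed by -0.65 ± 0.27 (adjusted p = 0.0527), Rplp2 by -0.21 ± 0.28, Rpsa by 0.12 ± 0.25, Rpl11 by -0.11 ± 0.25, Rpl3 by 0.18 ± 0.23 and Rpl10 by -0.25 ± 0.26. Rps4x differed by 0.49 ± 0.28, Rps14 by -0.15 ± 0.25, Rps27 by 0.16 ± 0.24 and Rpl22 by 0.61 ± 0.28. All of these were at the ceiling in all 4 samples. Rps3, with 3 of 4 saturated, differed by 0.11 ± 0.23. Rpl39, which lines the exit tunnel of the large subunit, was represented by a dim probe with a mean log2 signal of 8.04 ± 0.13 (SD, n = 4) in unstimulated neurons, and differed by 0.12 ± 0.36.

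At 90/5 2 hr, on the same slide as 18/1 5 hr, 1 of 76 members was called, at a background of 6.97%. It was Rps18, with signals of 14.71 and 14.18 on array 7 and 12.94 and 12.89 on array 8. The difference of -1.47 ± 0.37 had an adjusted p of 0.0186. Both values of array 8 were within the range of the 18/1 5 hr samples, and those of array 7 were between that range and the unstimulated one. Leaving out arrays or samples in turn moved the Rps18 difference between -2.24 and -0.71. It was -0.71 without array 8 (adjusted p = 0.640) and -2.24 without array 7. Without array 1, 2 or 8 in turn 0 members were called, and without array 7 it was 5. The median of the members was -0.07, against -0.08 over all genes, and 7 had an unadjusted p under 0.05. These also depend on the scaling. With cyclic loess 28 were called, 2 higher and 26 lower, at 10.3% of all genes, and the median was -0.67. With median centring 1 was called, as higher, at 4.46%, and the median was -0.51. Rps19 showed the same split between arrays, with 14.58 and 14.08 on array 7 and 12.82 and 13.26 on array 8, and its difference of -0.63 ± 0.36 was not called. Arrays 5, 6 and 8 are also those on which 3138 or more spots per sample were non-uniform. The part of spot quality in these falls was not tested.

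Only probes that stayed under the ceiling in all 20 samples can show both directions, and 22 members had one. At 18/1 2 hr 0 of the 22 were called, at a background of 0.0118% of 8475 genes. At 90/5 5 hr it was also 0, at 0.0354%. At an unadjusted p under 0.05 it was 0 in both. At 18/1 5 hr 11 of 22 were called, at a background of 45.8%, and the median of the 22 was -0.37, against -0.39 over the genes with such probes. Lower were Rps16 (-3.78), Rps18 (-2.72), Rpl13 (-2.17), Rps19 (-1.81), Rpl36 (-1.37), Rpl13a (-1.21) and Rpl8 (-0.95). Higher were Rpl23 (1.18), Rpl14 (1.07), Rps6 (0.95) and Rpl21 (0.67). At 90/5 2 hr 2 were called, Rps16 (-2.03) and Rps18 (-1.47), at a background of 4.93%.

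Several of these calls rest on 1 of a gene's probes. The first Rps16 probe fell from 14.91, 15.06, 15.32 and 15.08 in unstimulated neurons to 10.90 and 10.20 on array 5 and 12.31 and 11.82 on array 6. Its scanned intensities went from 18518 to 29169 down to 1716 to 9958. The second Rps16 probe lies next to it and was at the ceiling on slide 2, with a difference of -0.10 ± 0.26, and a further one also at the ceiling differed by 0.11 ± 0.26. Those intensities were 55958 to 65373 in unstimulated neurons and 65181 to 65527 at 18/1 5 hr for the second probe, where the values at 18/1 5 hr lie at the ceiling and are lower limits, so that this probe gives no direction. The first Rpl13 probe fell by 2.17 and the second, with the same number of G and C, differed by 0.06 ± 0.25, at the ceiling. The first Rps2 probe fell by 2.05, with 1 of 4 samples saturated, and the second differed by -0.33 ± 0.30, at the ceiling. For Rps6, the target of S6 kinase, the probe with the highest signal was at the ceiling and differed by -0.28 ± 0.27. Its other probe rose from 11.57, 11.99, 11.79 and 12.02 to 12.81, 12.76, 12.57 and 13.05, a difference of 0.95 ± 0.26 with adjusted p = 0.00504, and differed by 0.52 ± 0.26 at 18/1 2 hr, 0.85 ± 0.26 at 90/5 2 hr and 0.51 ± 0.26 at 90/5 5 hr, none of them called.

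Over the 50 members with more than 1 tested probe, the spread between the highest and lowest difference of a gene's probes had a median of 0.10 at 18/1 2 hr and 0.11 at 90/5 5 hr. It was 0.61 at 18/1 5 hr, with 14 genes over 1, and 0.33 at 90/5 2 hr, with 7 over 1. The corresponding medians over 1514 other genes were 0.14, 0.22, 0.92 and 0.47. Rpl7a had probes called in opposite directions from 18/1 2 hr to 18/1 5 hr and between the patterns at 5 hr. Some probe positions may be those of near-identical copies. Of the 83 members, 12 had probes placed on more than 1 chromosome, among them Rpl13, Rpl36 and Rps4x. The Rpl36 probe that was called lower is placed on chromosome X. The Rps2 probes lie far apart on chr17, which the count of 12 leaves out. Which copy a probe reads was not tested, and their values are uncertain in that respect.

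**Figure D4:**
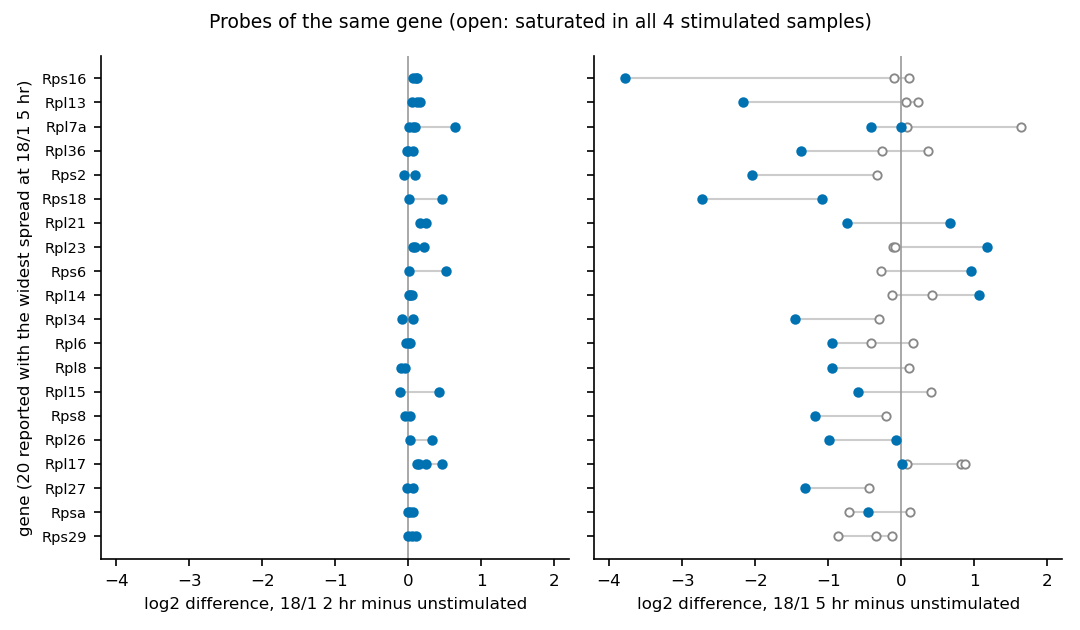
Log2 differences from unstimulated neurons of all tested probes of the 20 members, among those reported, with the widest spread at 18/1 5 hr, at 18/1 2 hr (left) and at 18/1 5 hr (right), 1 point per probe and 1 line per gene. Open points were saturated in all 4 stimulated samples. The probes of a gene lie close together at 18/1 2 hr and up to 3.89 apart, for Rps16, at 18/1 5 hr.

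The differences on slide 2 went with the GC content of the probes. Member probes had 16 to 33 G or C in 60 bases, with a median of 26.5, against 25 over all 12137 probes tested. Across the 152 member probes, which share the libraries and are not independent, Pearson's r between GC content and the log2 difference was -0.47 at 18/1 5 hr and -0.57 at 90/5 2 hr. It was -0.16 at 18/1 2 hr and 0.27 at 90/5 5 hr. Across all probes the corresponding values were -0.44, -0.35, -0.05 and 0.19. Among member probes with up to 24 G or C, 10 of 52 were called higher and 2 lower at 18/1 5 hr, with a median of 0.10. With 25 to 29 it was 3 higher and 10 lower of 68, with a median of -0.14. With 30 or more it was 0 higher and 12 lower of 32, with a median of -0.40. Over all 12137 probes 45.3% were called, and the shares in the same bins were 26.3% higher and 12.4% lower, 6.11% and 37.9%, and 3.2% and 61.6%, with medians of 0.24, -0.50 and -0.95, so the slope is one of the whole array. The Rps18 and Rps19 falls were smaller but remained called with the trend on GC removed, at -1.74 and -1.21. For the members as a whole, removing it moved the median at 18/1 5 hr from -0.10 to 0.32.

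**Figure D5:**
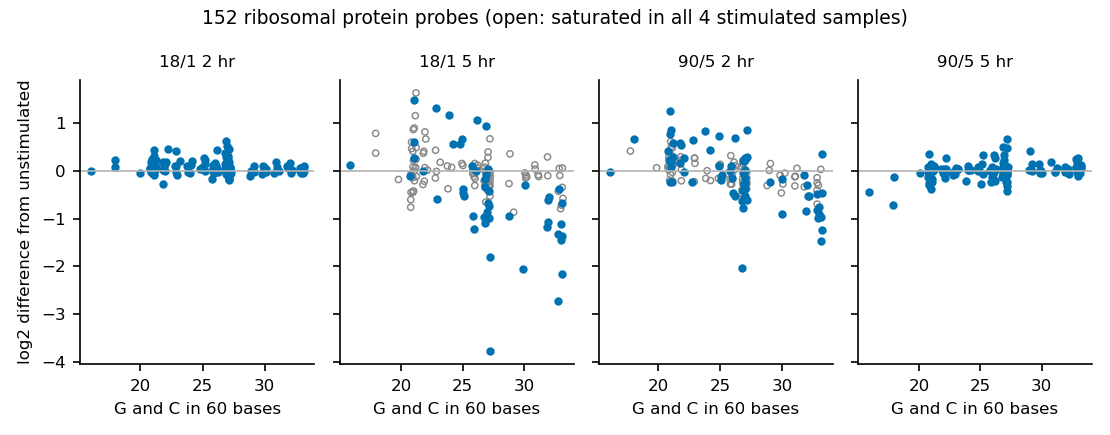
Log2 difference from unstimulated neurons against the number of G and C in the 60 bases of each of 152 ribosomal protein probes, 1 panel per condition. Open points were saturated in all 4 stimulated samples. At 18/1 5 hr and 90/5 2 hr, both on slide 2, the points slope down with GC content (r of -0.47 and -0.57), and at 18/1 2 hr and 90/5 5 hr they lie near 0.

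The patterns were compared at matched times. At 2 hr, 1 of 76 members was called between 90/5 and 18/1, at a background of 4.96%, and it was Rps18, with a difference of -1.48 ± 0.37. Without array 3, 4 or 8, or 1 sample of array 8, it was 0, without array 7 it was 5 and without the Cy3 sample of array 7 it was 3. The Rps18 call was lost in 12 of 25 alternatives, and cyclic loess called 4 members, 2 higher and 2 lower, at 6.64% of all genes. At 5 hr, 14 were called between 90/5 and 18/1, 8 higher and 6 lower at 90/5, at a background of 45.4%. The split depends on the scaling, with 65 higher and 0 lower under median centring, 44 and 4 under cyclic loess and 6 and 18 with the GC trend removed. The shares called were then 85.5% against 56.8% of all genes, 63.2% against 47.7% and 31.6% against 35.0%. Markers of other cells differed here too, with 3 of 4 fibroblast markers called lower at 90/5 (median of the 4 -1.19, range -1.81 to -0.54, against 0.23 over all genes) and the endothelial marker Pecam1 called higher by 1.35. Of 14 sensory neuron markers 1 was called, as higher. Their part in the members' values was not tested. Rps18 was 2.71 ± 0.37 higher at 90/5, with 15.21, 14.97, 15.44 and 14.94, Rps19 1.49 ± 0.36 higher and Rpl18 1.38 higher. The call was lost for Rps19 in 2 of 25 alternatives, with values down to 0.74, and for Rpl18 in 2 of 23, down to 0.34. That of Rps18 was lost in 0 of 25. Rps21, Rps4x and Rpl17 were lower at 90/5 by at least 2.82-fold, 1.74-fold and 1.72-fold, and Rpl36a differed by -1.26 with 3 of 4 samples of 18/1 5 hr saturated. These bounds are for the Aquantile scaling. In the alternatives Rps21 differed by -1.71 to -0.71 and lost its call in 1 of 23. Rpl36a lost its call in 2 of 23, with values from -1.71 to -0.74. The unsaturated probe of Rpl17 differed by 0.28 ± 0.33 there. The count at 5 hr ran from 7 without array 9 and 9 without array 5 or 10 to 20 without array 6. Both comparisons run across slides.

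Between the times, 13 of 76 members were called from 2 hr to 5 hr of 18/1, 3 higher and 10 lower, at a background of 44.0%. Here too the split moved, to 0 higher and 67 lower with median centring, 3 and 48 with cyclic loess and 19 and 7 with the GC trend removed. These are 88.2% against 52.1% of all genes, 67.1% against 46.1% and 34.2% against 36.3%. Of the markers, 1 of 4 for fibroblasts was called higher, Pecam1 lower (-1.30) and 1 of 14 for sensory neurons lower. Rps18 fell by 2.73, Rps19 by 2.19 and Rpl18 by 1.19. The Rpl18 call was lost in 2 of 23 alternatives, with values between -1.47 and -0.2, and those of Rps18 and Rps19 in 0 of 25. Rpl17 was called higher by at least 1.64-fold on its brightest probe, while its unsaturated probe differed by -0.45 ± 0.33. The count ran from 5 without array 4, 6 without array 5 and 8 without the Cy3 sample of array 5, to 18 without array 6. From 2 hr to 5 hr of 90/5 it was 5, at a background of 8.96%, and 1 without array 8, 9 or 10. Cyclic loess called 39, 37 higher and 2 lower, 51.3% against 14.4% of all genes, and median centring 14, 13 higher and 1 lower, 18.4% against 7.55%. Rps18 rose by 1.46 ± 0.37 and Rpl18 rose with an adjusted p of 0.0384, and Rps21, Rps4y2 and Rps4x fell, by 1.38 (3 of 4 samples of Rps21 saturated at 90/5 2 hr), by 0.89 and by at least 1.89-fold. These calls were lost for Rps4y2 in 22 of 25 alternatives, Rps4x in 18 of 23, Rpl18 in 17 of 23, Rps18 in 10 of 25 and Rps21 in 2 of 23. Rps4y2, a relative of Rps4x that was saturated in no sample, had 12.25, 12.09, 12.23 and 12.14 at 90/5 2 hr and 11.27, 11.30, 11.54 and 11.03 at 90/5 5 hr. It had 11.27, 11.43, 11.25 and 11.63 in unstimulated neurons, so that the 90/5 2 hr samples lay above both other groups, and their difference from unstimulated of 0.78 ± 0.27 was not called (adjusted p = 0.0867). All of these compare slides too.

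Within slide 2, 5 of 76 members were called between 90/5 2 hr and 18/1 5 hr, all higher at 90/5 2 hr, at a background of 12.9%. With median centring it was 71, all higher, at 44.4% of all genes, with cyclic loess 0, at 6.29%, and with the GC trend removed 6, 2 higher and 4 lower, at 7.89%. The 5 were Rps18 (1.25 ± 0.37), Rps19 (1.18 ± 0.36), Rpl21, Rpl4 and Rpl32. Rpl4 and Rpl32 were saturated in all samples of both conditions and have no fold, and Rpl21 in 3 of 4 of each. For Rps18 and Rps19 the higher values were those of array 7. With slide as a fixed block 1 was called, and the count was 0 without array 5 or 7 and 9 without array 6.

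On the Aquantile scaling, neither subunit had a share of calls above that of all genes at 18/1 5 hr, which was 15.0% higher and 29.5% lower. This does not carry over to other scalings. For both subunits together the share called was 82.9% against 51.8% with median centring and 67.1% against 45.9% with cyclic loess. With the GC trend removed it was 32.9% against 36.0%. Among small subunit genes, 2 of 31 were called higher and 4 lower at 18/1 5 hr, with a median of -0.08, and 2 of 45 large subunit genes higher and 3 lower, with a median of -0.11. At 18/1 2 hr the medians were 0.05 and 0.03, and at 90/5 5 hr 0.01 and 0.03.

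The other paralogs were dim or not called against unstimulated neurons. Rpl10l and Rpl3l, the first known from testis and the second from muscle, and Rpl39l did not pass the filter, since in 14 to 17 of 20 samples their spots stayed under 2 times the background. Rps27l, a relative of Rps27 known as a p53 target, differed by 0.15 ± 0.31 after 2 hr and 0.57 ± 0.31 after 5 hr of 18/1, and by -0.09 ± 0.31 and 0.34 ± 0.31 after 2 hr and 5 hr of 90/5. Its scanned intensities at 18/1 5 hr were 65091, 65521, 56612 and 65527, at or near the ceiling, so the difference there may be a lower limit. The other members that did not pass, Rpl5, Rplp1, Rps7 and Rpl7l1, were bright enough in all 20 samples and were left out for 1 or 2 non-uniform samples of 18/1 5 hr. With the filter asked for in 1 condition only, Rplp1 differed by -1.15 ± 0.42 at 18/1 5 hr (adjusted p = 0.0342). Of its 4 samples there 1 was non-uniform and 2 were saturated, as were 2 in unstimulated neurons, and the groups overlapped. In the same fit Rpl5, Rps7 and Rpl7l1 differed by -0.13 ± 0.41, 0.02 ± 0.33 and -0.82 ± 0.44, none of them called.

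Genes that work with the ribosome were counted beside the members. At 18/1 2 hr and at 90/5 5 hr, 0 were called of 18 other mRNAs with a 5′ pyrimidine tract, of 26 ribosome biogenesis genes, of 16 genes of mTORC1 and translation control and of 66 mitochondrial ribosomal protein genes. Of the 18, at 18/1 5 hr, 2 were lower and 0 higher, Eif4b (-1.21) and Eif3f (-0.66), both translation initiation factors. Of the biogenesis genes 4 were higher and 7 lower, 42.3% in all and near the 44.4% of all genes. Ltv1 (1.91) and Brix1 (1.15), which act in the assembly of the small and large subunit, were higher, and Bop1 (-1.82), which processes the large subunit's rRNA, was lower. Of the mTORC1 list 3 were higher and 4 lower, 43.8% and also near it. Mtor, the kinase, was 1.09 higher and Rps6kb1, the S6 kinase, 1.16 higher, Rheb, which activates mTORC1, was higher with all 4 samples at the ceiling, and Mlst8, the partner of the kinase, fell by 1.62. Of the mitochondrial ribosomal protein genes 17 were higher and 13 lower, 45.5%, near the background of 44.4%. At 90/5 2 hr the lists had 0 of 18, 2 of 26 (Fbl 0.85 and Bop1 -1.07), 2 of 16 (Mtor 1.08 and Mlst8 -0.99) and 2 of 66 called, against 6.97% of all genes.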

How the data were processed

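The authors deposited the scanner output of each array, with spot intensity (the mean over pixels) and local background intensity (the median) for Cy3 and Cy5, on a linear scale and not normalized, as extracted with Agilent Feature Extraction. The scanner software also marked spots (0 or 1) that were saturated, non-uniform or well above background, and these deposited marks were taken over. On slide 1 the saturation mark misses Cy3 spots at the ceiling, so signals within 1% of 65526 there were also counted. Gene names are those of the later of 2 array annotations, which differ for 8333 spots, and positions are on mm9.

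In R 4.3.3 with limma 3.58.1, background was corrected by normexp with an offset of 50, colours were normalized by loess within arrays, with control spots at weight 0, and arrays by Aquantile. A spot was kept if in all 20 samples its signal was 2 times its background or more and it was not non-uniform. Spots of a probe were averaged, and the probe of highest mean signal stood for its gene name. The linear model had a mean per condition, a term for Cy5 and the array as a random block (consensus correlation 0.53), with moderated statistics from limma and Benjamini-Hochberg adjustment over all genes of a comparison at 0.05. A probe saturated in all 4 samples of a condition was given as a bound, which is one for the Aquantile scaling only. The fit was tested on simulated data. Figures were drawn in Python with matplotlib.

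The precision is limited by 2 arrays per condition. Same-numbered samples of unstimulated neurons and 18/1 2 hr deviated together, with correlations of 0.13 to 0.56, without the labels saying that a number marks a shared batch. For unstimulated neurons and 90/5 5 hr they ran from -0.34 to 0.36. The numbers of slide 2 are open.

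Members and gene lists were chosen with earlier results of these data known. Genes named are those fixed by role, the paralogs, up to 3 called members per comparison and direction, by size, among those with samples that do not overlap, members with probes called in opposite directions and members that did not pass the filter. Others, such as the 22 with a probe under the ceiling, Rpl13, Rps2 and Rps16, were named after their values were seen. Alternatives were no background subtraction, quantile normalization, median centring, cyclic loess, a filter within 1 condition, no filter, unsaturated probes, every probe, no array block, array means, 2 conditions alone, a slide block, slide 2 left out, the t-test that the methods name, on unlogged values and adjusted, the GC trend removed, a replicate block, and each sample and array left out. Unsaturated probes with the GC trend removed and Cy3 samples alone were chosen after seeing the data. Values of the latter are not given, since Cy3 spots of slide 1 also reached the ceiling. Some genes that the rule would name are not reported here by name, and counts include them.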

Additional observations from a re-analysis of the deposited data

Results flagged for a closer look

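In 2 of 125 sets of 4 samples, over the named members and conditions, 1 sample stood far from the rest, by a gap to its neighbour that is a larger share of the range than Dixon's 95% limit, which chance exceeds in about 1 in 20 sets. For Rpl32 in unstimulated neurons the share was 0.833, with replicate 4 at 16.21 and the others between 16.11 and 16.12. That probe was marked saturated in 2 of these 4 samples, so the gap is one between values near the ceiling. For Rpl36a at 90/5 2 hr it was 0.919, with the Cy5 sample of array 7 at 13.47 and the others between 14.66 and 14.77.

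The change from 2 hr to 5 hr differed between the patterns for 14 of 76 members, against 44.8% of all genes, by a test of the difference in limma. Among the named members, the change under 90/5 minus that under 18/1 was 4.19 for Rps18, 2.50 for Rps19 and 2.29 for Rpl18. It was -1.94 for Rps21, -1.69 for Rpl36a, -1.32 for Rps4x and -1.32 for Rps4y2. Each of these sets 2 conditions of slide 2 against 1 of slide 1 and 1 of slide 3. Rps21 and Rps4x were at the ceiling in all samples of 18/1 5 hr, so their size is a limit. The part of slide was not tested and cannot be told apart from condition.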

How the results depend on the processing

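The 2 comparisons without slide 2, 18/1 2 hr and 90/5 5 hr against unstimulated neurons, kept 0 called members in the alternatives run, apart from 1 (Rps21) at 90/5 5 hr with replicate number as a block and 1 with slide 2 left out. The ceiling of the scans hides changes on slides 1 and 2, and 2 arrays per condition limit precision everywhere. The cause of the changes below was not tested. A slide block could be fitted only for the comparisons within a slide and a replicate block only for numbered conditions. In the comparisons below, the order is 18/1 5 hr and 90/5 2 hr against unstimulated neurons, 90/5 against 18/1 at 2 hr and at 5 hr, 5 hr against 2 hr of 18/1 and of 90/5, and 90/5 2 hr against 18/1 5 hr. The counts of called members reported for these are 11, 1, 1, 14, 13, 5 and 5.

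With cyclic loess the counts were 51, 28, 4, 48, 51, 39 and 0 (45.9%, 10.3%, 6.64%, 47.7%, 46.1%, 14.4% and 6.29% of all genes), and with every probe as a feature 37, 3, 3, 39, 39, 10 and 9 of 152 (45.3%, 6.08%, 4.69%, 46.3%, 45.3%, 8.30% and 14.3% of all probes). The share of all genes called at 18/1 5 hr itself ran from 25.7% with no spot filter to 59.2% without the array block. The counts below that are given without a share of all genes are not set against a background. Median centring gave 63 for 18/1 5 hr, 0 between patterns at 2 hr and 65, 67, 14 and 71 for the last 4 (51.8%, 3.39%, 56.8%, 52.1%, 7.55% and 44.4% of all genes). Without the array block the counts were 25, 9, 6, 24, 24 and, within slide 2, 15. Removing the GC trend gave 25, 0, 0, 24, 26 and, for 90/5 over time, 0. The count at 18/1 5 hr was 7 with no spot filter (25.7% of all genes). That setting also gave 0 for 90/5 2 hr against both unstimulated neurons and 18/1 (1.63% and 1.32%). It gave 1 for 90/5 over time (3.09%) and 1 within slide 2. With only the 2 conditions compared, counts after that of 18/1 5 hr were 0, 0, 8, 8, 1 and 0, and with the methods' t-test 0, 8, 8, 0 and 0 for the last 5. Array means gave 0 and 0 for 90/5 2 hr against unstimulated neurons and 18/1, and 1 and 0 for the last 2. Unsaturated probes gave 2 and 2 for the same pair and 3 for 90/5 over time (4.93%, 2.95% and 6.56% of genes with such probes). With the GC trend removed as well, chosen after seeing the data, they gave 2 for 90/5 2 hr against unstimulated neurons. For the last 2 comparisons they then gave 1 and 0. A filter within 1 condition gave 2 and 1 for the last 2 (7.94% and 8.88% of all genes). No background subtraction gave 3 for 90/5 over time (8.18%), quantile normalization 2 between patterns at 2 hr (5.11%) and the slide block 1 for the last.

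The median log2 difference of the members, for 18/1 2 hr, 18/1 5 hr, 90/5 2 hr and 90/5 5 hr against unstimulated neurons and then the other 5 comparisons, was 0.15, -1.81, -0.51, 0.30, -0.66, 1.99, -1.94, 0.73 and 1.28 with median centring and 0.20, -0.37, -0.22, 0.12, -0.38, 0.50, -0.57, 0.21 and 0.33 with unsaturated probes. Cyclic loess gave -0.91, -0.67 and 0.10 from 18/1 5 hr on, then -0.68, 0.90, -0.90 and 0.69. With the GC trend removed it was 0.32 at 18/1 5 hr, then 0.05, -0.39, 0.33 and -0.10 for the comparisons of pattern and time, and with unsaturated probes as well 0.21 at 18/1 2 hr and 0.11 at 90/5 5 hr. Median centring turned Rpl17 to -0.55 at 18/1 5 hr. Unsaturated probes with the GC trend removed turned Rpl17 at 18/1 5 hr to -0.04.

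With each sample or array left out, counts ran from 0 to 0 at 18/1 2 hr (medians -0.01 to 0.07), 4 to 19 at 18/1 5 hr (-0.23 to 0.03), 0 to 5 at 90/5 2 hr (-0.12 to 0.01) and 0 to 0 at 90/5 5 hr (-0.03 to 0.05). For the other comparisons, in the order above, they ran from 0 to 5 (-0.17 to -0.02), 7 to 20 (-0.04 to 0.23), 5 to 18 (-0.25 to 0.03), 1 to 5 (-0.03 to 0.09) and 0 to 9 (-0.11 to 0.15). The Rps18 fall at 90/5 2 hr lost its call in 10 of 25 alternatives. Replicate number as a block changed no call other than that of Rps21, and the numbers are not known to pair the samples.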
